A study of Homo sapiens with 6 samples.

Results

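RNA was measured in HCC-LM3 cells, an established human hepatocellular carcinoma line of high metastatic potential. The 10 genes described here are targets or parts of the NF-kappaB pathway, whose activity itself was not measured. They were chosen by symbol and are 10 of the 23059 genes counted: the ligands CXCL1, CXCL8 and IL1B, the response genes IER3 and TNFAIP2, the inhibitors TNFAIP3 and NFKBIA, and the subunits NFKB1, NFKB2 and RELB. The study gave the cells apigenin, a flavonoid found in many plants, or DMSO, the solvent control, and sequenced total RNA of 3 biological replicates per group to ask how apigenin changes transcription. Both groups are the same line with no genetic change named, and the labels name neither a dose nor a length of treatment. The replicates are called biological in the labels, but nothing says that they came from separate cultures, so the p-values measure the spread between these samples.

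NF-kappaB is a family of paired transcription factors that inhibitor proteins hold in the cytoplasm until signals from TNF, interleukin 1 or Toll-like receptors lead to the inhibitors' destruction. The freed dimers then enter the nucleus and bind kappaB sites in genes for chemokines, cytokines, survival proteins and the pathway's own inhibitors, which close the loop. In the liver the pathway is known for its part in inflammation, in hepatocyte survival and in tumours that arise in inflamed tissue.

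Apigenin left the pathway's own subunits and inhibitors without a called change, while 3 of the response genes and ligands rose and 1 fell. IL1B rose 1.93-fold, IER3 1.80-fold and TNFAIP2 1.42-fold, CXCL1 was 4.45-fold lower, and CXCL8 averaged 4.15 ± 0.988 CPM with apigenin and 4.18 ± 0.77 CPM with DMSO. All 10 genes passed the filter on low counts. Of the 10, 3 were called higher (30%), against a background of 2.76% of the 15173 tested genes, and 1 was called lower (10%), against 4.22%. In either direction, 6.99% of tested genes were called. The calls came from edgeR's quasi-likelihood test with Benjamini-Hochberg adjustment over all tested genes at 0.05. The median log2 fold change was 0.08 over the 10 genes and 0.0039 over all tested genes. The libraries did not overlap between the groups for 4 genes with higher (14.4% of tested genes) and 3 with lower levels in apigenin (15.0%). Levels are CPM, read counts per library size after TMM scaling, given as mean ± SD over the 3 libraries of a group, and fold changes are log2, apigenin over DMSO, ± SE.

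**Figure D1:**
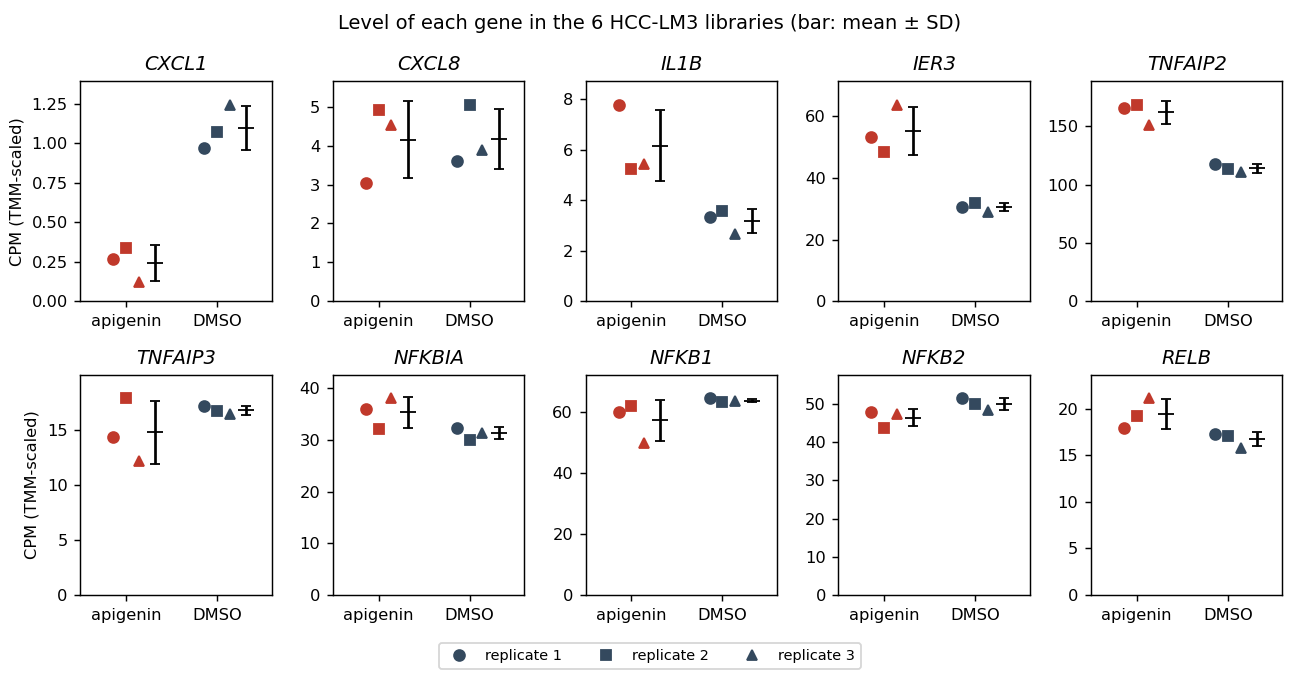
Level of the 10 genes in each library, in TMM-scaled CPM on a linear axis that starts at 0, with apigenin left of DMSO; symbols mark replicate numbers and bars the mean ± SD of 3 libraries. The apigenin libraries all lie above those of DMSO for IL1B, IER3, TNFAIP2 and RELB, by a narrow margin for RELB. They all lie below for CXCL1, NFKB1 and NFKB2, narrowly for NFKB1 and NFKB2, and overlap DMSO for CXCL8, TNFAIP3 and NFKBIA.

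The libraries held 33882145 to 37983636 counts with apigenin and 34647650 to 37276429 with DMSO, so that 0 reads in a library allow at most 0.079 to 0.0885 CPM, from counting error only. Of 12 hepatocyte markers, 11 reached 1 CPM (the other, APOA2, had 1 count in each group). Their summed level was 562 to 587 CPM with apigenin and 747 to 776 CPM with DMSO, and the part of this in the results was not tested. Of 8 leukocyte markers measured, 2 reached 1 CPM, CD68 and ITGAM, and the list summed to 91.3 to 102 CPM with apigenin and 95.7 to 103 CPM with DMSO. Most of that sum was CD68, at 85.1 to 93.7 CPM with apigenin and 86.3 to 93.5 CPM with DMSO. PTPRC, the pan-leukocyte gene CD45, had 0, 4 and 9 counts with apigenin and 6, 5 and 3 with DMSO. In apigenin 1, 2 and 3, log2 levels relative to the DMSO mean sloped by -0.071, -0.021 and -0.147 per doubling of gene length, against 0.0015, -0.0047 and 0.0032 in DMSO 1, 2 and 3. Values with each library's length trend removed are given beside the results that this moves with.

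The promoters of these genes differ in sequence although all are tied to the pathway. Among the ligands and response genes shown, CXCL1 fell, IL1B and TNFAIP2 rose, and CXCL8 was not called. The windows below are shown for this difference, with NFKBIA as a well-known direct target. They run from 250 bases before to 50 bases after the start, 5′ to 3′ on the strand of the gene, from RefSeq on GRCh38.p14, in which 8 of the 10 genes matched an entry (not IER3 and RELB). Capitals mark GGNNNTTCC, a short kappaB pattern searched on both strands and chosen after the sequences were seen. The CXCL1 window is chr4:73869143-73869442 on the plus strand, CXCL8 chr4:73740319-73740618 on the plus strand, and TNFAIP2 chr14:103123211-103123510 on the plus strand, at a start inside the annotated gene. The NFKBIA window is chr14:35404700-35404999 and the IL1B window chr2:112836730-112837029, both on the minus strand.
CXCL1: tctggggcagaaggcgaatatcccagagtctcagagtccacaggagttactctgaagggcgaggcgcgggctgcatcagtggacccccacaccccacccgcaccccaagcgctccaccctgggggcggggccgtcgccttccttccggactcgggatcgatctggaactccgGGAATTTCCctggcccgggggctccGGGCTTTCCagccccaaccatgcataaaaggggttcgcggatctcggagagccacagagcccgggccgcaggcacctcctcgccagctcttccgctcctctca
CXCL8: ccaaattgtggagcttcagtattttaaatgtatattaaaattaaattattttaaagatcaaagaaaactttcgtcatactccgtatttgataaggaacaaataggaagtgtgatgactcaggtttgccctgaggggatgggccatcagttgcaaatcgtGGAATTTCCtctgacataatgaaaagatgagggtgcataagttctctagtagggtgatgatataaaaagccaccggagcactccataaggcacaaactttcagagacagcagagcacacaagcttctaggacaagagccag
TNFAIP2: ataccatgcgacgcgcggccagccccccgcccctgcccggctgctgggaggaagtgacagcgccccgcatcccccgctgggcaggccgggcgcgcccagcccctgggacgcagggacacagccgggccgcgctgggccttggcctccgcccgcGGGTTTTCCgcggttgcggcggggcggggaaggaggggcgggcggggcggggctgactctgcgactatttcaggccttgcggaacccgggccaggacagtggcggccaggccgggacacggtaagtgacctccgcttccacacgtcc
NFKBIA: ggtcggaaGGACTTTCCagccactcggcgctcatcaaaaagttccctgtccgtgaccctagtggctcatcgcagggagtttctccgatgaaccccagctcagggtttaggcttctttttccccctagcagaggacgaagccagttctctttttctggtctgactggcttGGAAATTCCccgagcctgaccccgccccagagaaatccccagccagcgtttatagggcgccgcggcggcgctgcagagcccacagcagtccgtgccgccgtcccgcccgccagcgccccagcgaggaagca
IL1B: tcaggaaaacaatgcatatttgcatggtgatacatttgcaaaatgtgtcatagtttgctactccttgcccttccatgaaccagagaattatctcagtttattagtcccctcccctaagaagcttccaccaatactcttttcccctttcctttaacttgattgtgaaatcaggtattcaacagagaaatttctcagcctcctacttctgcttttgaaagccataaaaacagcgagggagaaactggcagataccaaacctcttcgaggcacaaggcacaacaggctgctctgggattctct

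The pattern was found in a window of 7 of the 8 genes, CXCL1, CXCL8, TNFAIP2, TNFAIP3, NFKBIA, NFKB1 and NFKB2, and not in that of IL1B. It occurs in 28.3% of the 11838 tested genes that have a window and in 20.1% of all 35114 windows. Several genes have more than one window: NFKB1 has 2 and NFKB2 has 3. The 10-letter kappaB consensus, which overlaps the short pattern, was found in 5 of the 8 genes, CXCL1, TNFAIP3, NFKBIA, NFKB1 and NFKB2, and in 16.8% of the tested genes. CXCL1, CXCL8 and NFKB1 held the same 9 letters, GGAATTTCC, starting 78, 91 and 48 bases before the start, and NFKBIA held their reverse complement, GGAAATTCC, starting 81 bases before it. CXCL1, which fell, CXCL8, which did not pass, and TNFAIP2, which rose, all held a match, and IL1B, which rose, held none in this window. A match of letters describes the sequence and does not show binding.

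CXCL1 and CXCL8 encode chemokines that draw neutrophils through the receptor CXCR2, and they lie close together on chromosome 4 (73869393 to 73871308 and 73740569 to 73743716, GRCh38). CXCL1 fell with apigenin. It had 9, 13 and 4 counts in apigenin 1, 2 and 3, against 36, 40 and 43 counts in DMSO 1, 2 and 3. Each apigenin library was below each DMSO library, and all 6 values are low. The summed counts were 26 with apigenin (95% exact Poisson interval 17 to 38.1, counting error only) and 119 with DMSO (98.6 to 142). The level was 0.241 ± 0.112 CPM with apigenin and 1.09 ± 0.14 CPM with DMSO (log2 fold change -2.15 ± 0.511, n = 3 per group, edgeR adjusted p = 0.0245). Leaving out any library other than apigenin 2 ended the call (adjusted p of up to 0.124), with log2 fold changes of -2.49 to -1.84.

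CXCL8, the gene of interleukin 8, had 3.04, 4.90 and 4.52 CPM in apigenin 1, 2 and 3, against 3.60, 5.05 and 3.88 CPM in DMSO 1, 2 and 3. The groups overlap, and apigenin 1 was the lowest and DMSO 2 the highest of the 6. The log2 fold change was -0.0068 ± 0.213, with a 95% interval of -0.46 to 0.45 (edgeR adjusted p = 0.99). The values do not exclude a change within those bounds. Per length, CXCL8 stood at 2.02 ± 0.483 FPKM with apigenin and 2.03 ± 0.38 FPKM with DMSO, and CXCL1 at 0.206 ± 0.097 FPKM with apigenin and 0.932 ± 0.117 FPKM with DMSO.

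IL1B, which encodes the fever cytokine interleukin 1 beta (chromosome 2, 112829751 to 112836779), rose with apigenin. It had 7.78, 5.24 and 5.44 CPM in apigenin 1, 2 and 3, against 3.33, 3.56 and 2.66 CPM in DMSO 1, 2 and 3. Apigenin 1 stood furthest up, and the groups did not overlap. The mean was 6.16 ± 1.41 CPM with apigenin and 3.18 ± 0.466 CPM with DMSO (log2 fold change 0.95 ± 0.198, n = 3 per group, edgeR adjusted p = 0.0123). The call was lost without apigenin 1, DMSO 1 or DMSO 3 (adjusted p of up to 0.0856), at log2 fold changes of 0.74 to 1.05 over all 6 libraries left out in turn. With the length trend removed IL1B stood at 0.83 and kept its call (adjusted p = 0.0095). In a culture measured in bulk, more cells that express a gene and more RNA per cell cannot be told apart. Leukocytes are the usual source of IL1B in tissue, whereas all 6 libraries here are labelled as the HCC-LM3 line. Leukocyte marker levels are given above, with PTPRC at 0 to 9 counts per library. Which cells gave the rise was not tested.

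IER3 (chromosome 6, 30743199 to 30744547) encodes a small stress-inducible protein that acts in cell survival, and it had the smallest adjusted p of the 10. It had 53.2, 48.5 and 63.8 CPM in apigenin 1, 2 and 3, against 30.6, 31.9 and 29.1 CPM in DMSO 1, 2 and 3. The groups lie well apart, with apigenin 3 highest. The mean was 55.1 ± 7.82 CPM with apigenin and 30.5 ± 1.4 CPM with DMSO (log2 fold change 0.85 ± 0.094, n = 3 per group, edgeR adjusted p = 1.35e-04). IER3 is short, at 1237 nucleotides, and its rise of 0.80, 0.67 and 1.06 log2 units in apigenin 1, 2 and 3 kept the order of the slopes on length, whose part was not tested. With that trend removed the log2 fold change was 0.71 ± 0.066 (adjusted p = 4.78e-07). It overlaps IER3-AS1, which had 12 to 27 counts with apigenin and 20 to 32 with DMSO. No source used here says if reads were counted by strand, so reads of the pair may not have been told apart.

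TNFAIP2 (chromosome 14, 103121469 to 103137439) encodes a TNF-induced protein known for its part in membrane protrusions and tunnelling nanotubes, and it is the most read of the 10. It had 166, 169 and 151 CPM in apigenin 1, 2 and 3, against 118, 114 and 111 CPM in DMSO 1, 2 and 3. The lowest apigenin library was far above the highest DMSO library. The mean was 162 ± 9.52 CPM with apigenin and 114 ± 3.78 CPM with DMSO (log2 fold change 0.50 ± 0.061, n = 3 per group, edgeR adjusted p = 3.21e-04). At 5264 nucleotides it is longer than the median tested gene of 3872 nucleotides, and it stood at 0.54 with the length trend removed. IER3 and TNFAIP2 kept their calls in all 18 other settings tried, with any 1 library left out among them. TNFAIP2 overlaps LINC00677, which had 0 to 10 counts with apigenin and 0 with DMSO.

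The inhibitors were not called. TNFAIP3 (chromosome 6, 137866349 to 137883312) encodes A20, an enzyme that edits ubiquitin chains and shuts off the signal. It had 14.3, 17.8 and 12.1 CPM in apigenin 1, 2 and 3, against 17.2, 16.7 and 16.4 CPM in DMSO 1, 2 and 3. Apigenin 2 was above all DMSO libraries and the other two were below them. The log2 fold change was -0.18 ± 0.127 (95% interval -0.45 to 0.09, edgeR adjusted p = 0.422). TNFAIP3 is the longest of the 10, at 8616 nucleotides. Its deviations of -0.22, 0.09 and -0.46 log2 units followed the order of the libraries' slopes, whose part was not tested. TNFAIP3 stood at -0.07 once the length trend was removed. NFKBIA (chromosome 14, 35401513 to 35404749), which encodes I-kappaB alpha, had 35.9, 32.1 and 38.0 CPM in apigenin 1, 2 and 3, against 32.4, 30.1 and 31.4 CPM in DMSO 1, 2 and 3. Apigenin 2 fell within the DMSO range. Its log2 fold change was 0.17 ± 0.082 (95% interval -0.0012 to 0.35, edgeR adjusted p = 0.208). It was called without apigenin 2 (0.24, adjusted p = 0.0475), and with the length trend removed it stood at 0.06.

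The subunits were not called either. NFKB1 (chromosome 4, 102501359 to 102617302), which encodes the precursor of p50, had 60.1, 62.3 and 49.8 CPM in apigenin 1, 2 and 3, against 64.6, 63.4 and 63.7 CPM in DMSO 1, 2 and 3. All apigenin libraries were below DMSO, apigenin 3 furthest. The log2 fold change was -0.15 ± 0.081 (95% interval -0.33 to 0.02, edgeR adjusted p = 0.261). NFKB2 (chromosome 10, 102394110 to 102402529), which encodes the precursor of p52 in the non-canonical branch, had 47.9, 43.8 and 47.4 CPM in apigenin 1, 2 and 3, against 51.4, 49.9 and 48.3 CPM in DMSO 1, 2 and 3. Its groups did not overlap, by a narrow margin, and its log2 fold change was -0.11 ± 0.069 (95% interval -0.25 to 0.04, edgeR adjusted p = 0.38). RELB (chromosome 19, 45001464 to 45038192), which encodes the usual partner of p52, had 17.9, 19.2 and 21.1 CPM in apigenin 1, 2 and 3, against 17.3, 17.1 and 15.8 CPM in DMSO 1, 2 and 3. Its apigenin libraries all stood above DMSO, and its log2 fold change was 0.21 ± 0.098 (95% interval 0.0035 to 0.43, unadjusted p = 0.0468 and adjusted p = 0.198 by edgeR). With the length trend removed it was 0.14.

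**Figure D2:**
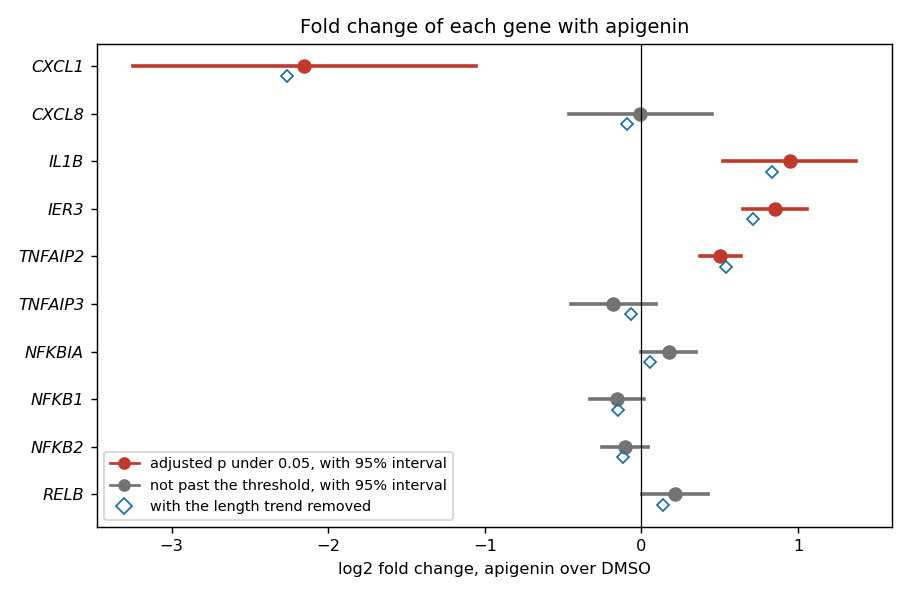
Log2 fold change of the 10 genes, apigenin over DMSO, with its 95% interval from edgeR's quasi-likelihood fit (filled circles; red where the adjusted p is under 0.05) and the value with each library's length trend removed (open diamonds). IL1B, IER3 and TNFAIP2 lie to the right of 0 and CXCL1 to the left, and the diamonds stay on the same side for all 4.

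Per length, the 10 genes ran from IER3 at the top to CXCL1 at the bottom in both groups. IER3 had 44.5 ± 5.82 FPKM with apigenin and 24.7 ± 1.2 FPKM with DMSO, TNFAIP2 30.8 ± 2.12 FPKM with apigenin and 21.7 ± 0.744 FPKM with DMSO, and NFKBIA 22.6 ± 1.72 FPKM with apigenin and 20.1 ± 0.709 FPKM with DMSO. In DMSO the 3 libraries of TNFAIP2 stood at 21.0 to 22.5 FPKM, just above those of NFKBIA at 19.4 to 20.8 FPKM. NFKB1 followed at 12.9 ± 1.61 FPKM with apigenin and 14.3 ± 0.131 FPKM with DMSO, then NFKB2 at 12.3 ± 0.522 FPKM with apigenin and 13.2 ± 0.419 FPKM with DMSO, and RELB at 8.53 ± 0.631 FPKM with apigenin and 7.36 ± 0.365 FPKM with DMSO. NFKB1 and NFKB2 did not differ beyond their spread with apigenin. At the low end, IL1B had 3.92 ± 0.903 FPKM with apigenin and 2.03 ± 0.302 FPKM with DMSO, and TNFAIP3 1.71 ± 0.35 FPKM with apigenin and 1.94 ± 0.048 FPKM with DMSO. IL1B, CXCL8 and TNFAIP3 were within each other's spread in DMSO, whereas with apigenin IL1B stood above both in every library. The median tested gene had 4.79 FPKM with apigenin and 4.87 FPKM with DMSO.

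The scatter of fold change against length places the 10 genes among all tested genes. The called genes IER3, IL1B and CXCL1 are short (1237, 1571 and 1174 nucleotides), and CXCL1 fell where short genes leaned upward. With the length trend removed, 702 genes were higher (4.63% of those tested) and 816 lower (5.38%), and the same 4 of the 10 genes were called in the same direction.

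**Figure D3:**
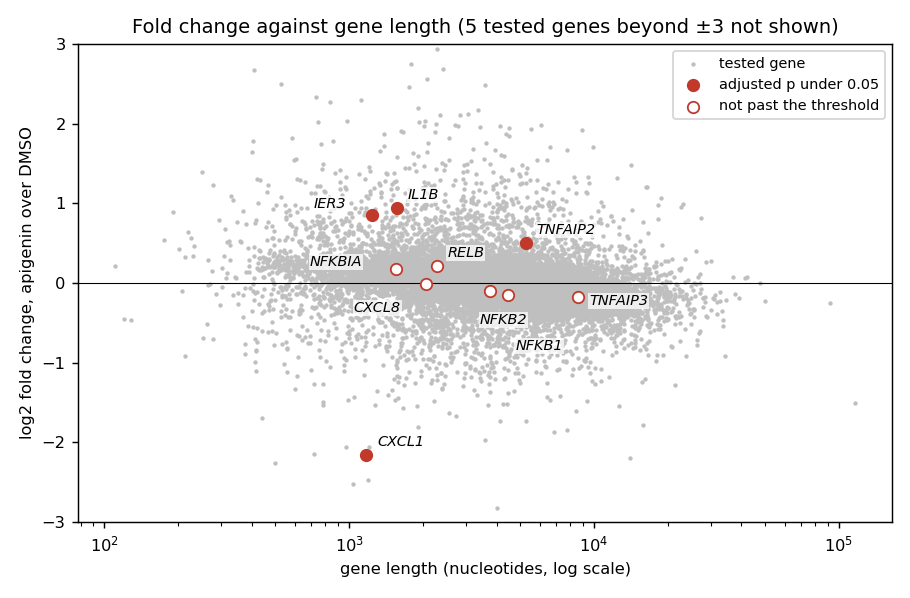
Log2 fold change, apigenin over DMSO, against gene length in nucleotides on a log scale, for all tested genes (grey) and the 10 genes (red; filled where the adjusted p is under 0.05). The cloud tilts downward with length, TNFAIP2 at 5264 nucleotides lies above it, and CXCL1 at 1174 nucleotides lies far below it.

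The 3′ ends of these messages differed in their AU-rich motifs. AU-rich elements in the 3′ untranslated region are known to shorten the life of messages for cytokines and early-response proteins. The motifs ATTTA and TTATTTATT were counted, in the direction of the gene, in the region of the longest coding transcript per gene in GENCODE 29, where each TTATTTATT also holds ATTTA. TTATTTATT occurred 3 times in CXCL1, 2 times in IL1B and 1 time each in CXCL8 and TNFAIP3, so in 4 of the 10 genes, against 8.94% of 12633 tested genes. Among tested genes whose region is within 10% of the same length, 4.21% held it for CXCL1, 3.40% for IL1B, 6.24% for CXCL8 and 9.29% for TNFAIP3. ATTTA occurred 7.08 times per kilobase in CXCL1, 7.19 in CXCL8, 9.84 in IL1B and 6.64 in IER3, against a median of 1.66 over tested genes. The subunits and inhibitors NFKB2 (6.54), NFKBIA (5.98), NFKB1 (4.24) and TNFAIP3 (2.51) were above that median too. ATTTA did not occur in TNFAIP2 and RELB. Counts of ATTTA were also set against the median of tested genes of similar region length. CXCL1, CXCL8, IL1B and IER3 had 5, 9, 6 and 6 (medians 1, 2, 1 and 1). NFKBIA and NFKB1 had 3 each (median 1), and TNFAIP3 had 5 (median 4). NFKB2 had 1, in a region of 153 bases (median 0). TNFAIP2 and RELB had 0 (medians 4 and 0). Genes with the longer motif therefore include the one that fell, one that rose and 2 that were not called. These motifs were chosen after the expression values were seen.

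Other genes of the pathway were mostly not called, as holds for all tested genes, of which 6.99% were called in either direction. Over 6 lists of 160 genes, 124 were tested, of which 8 rose (2.76% of tested genes in the background), 3 fell (4.22%) and 113 were not called, with a median log2 fold change of -0.02. With single libraries left out 4 to 20 rose and 2 to 13 fell, the most without apigenin 2. With the length trend removed 14 rose and 9 fell, against 4.63% and 5.38% of all tested genes. None of the 7 other NF-kappaB subunits and I-kappaB proteins was called by edgeR, 3 had an unadjusted p under 0.05, and DESeq2 called 1 lower. RELA, the gene of the main activating subunit, had 89.7 ± 5.44 CPM with apigenin and 79.5 ± 2.9 CPM with DMSO (0.17 ± 0.065, adjusted p = 0.118). NFKBIZ, which encodes an inducible nuclear I-kappaB protein, had -0.35 ± 0.112 (adjusted p = 0.0764) and was called lower with the length trend removed. BCL3, another nuclear I-kappaB protein gene, had 0.20 ± 0.070 (adjusted p = 0.0933) and was called higher with that trend removed. RELA, NFKBIZ and BCL3 were named after their values were seen.

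Of 39 genes of I-kappaB kinases, adaptors and regulators, 1 fell and 38 were not called, where 4.22% of all tested genes were called lower. The gene that fell was IRAK4, a kinase gene of interleukin 1 and Toll-like receptor signalling, at 31.8, 35.0 and 33.9 CPM in apigenin 1, 2 and 3, against 39.2, 41.9 and 39.5 CPM in DMSO 1, 2 and 3 (-0.26 ± 0.074, edgeR adjusted p = 0.0499). The groups did not overlap, but the adjusted p is at the threshold, and the call was lost in 12 of 18 other settings, with the length trend removed among them (-0.17, adjusted p = 0.128). Among these 12 were the fits without apigenin 1, DMSO 1, DMSO 2 or DMSO 3 (adjusted p of up to 0.195).

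Of 15 tested receptor genes, 2 rose and 13 were not called, where 2.76% of all tested genes were called higher and 4.22% lower. ACKR3, an atypical receptor that scavenges the chemokine CXCL12, had 22.7, 21.2 and 24.2 CPM in apigenin 1, 2 and 3, against 11.5, 13.3 and 14.4 CPM in DMSO 1, 2 and 3. All apigenin libraries were far above DMSO (0.80 ± 0.108, edgeR adjusted p = 7.36e-04). TNFRSF1B, the second TNF receptor, had 16.9, 16.6 and 15.6 CPM in apigenin 1, 2 and 3, against 10.6, 11.8 and 9.95 CPM in DMSO 1, 2 and 3 (0.60 ± 0.108, adjusted p = 0.0051). Its groups were likewise apart. The main TNF receptor gene TNFRSF1A had 0.08 ± 0.057 and the interleukin 1 receptor gene IL1R1 -0.09 ± 0.079, both without a call and both named after their values were seen.

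None of the 9 tested chemokine genes beyond CXCL1 and CXCL8 was called by edgeR or DESeq2. Of the 9, 2 had a positive and 7 a negative log2 fold change, against 7711 and 7462 of all tested genes. Their median was -0.18, and -0.25 with the length trend removed. An unadjusted p under 0.05 by edgeR was found for 4, which went both ways. CCL20 (0.43 ± 0.159) and CCL26 (0.31 ± 0.146) were higher with apigenin, and CXCL2 and CXCL16 (-0.18 ± 0.072) were lower. CXCL2, the neighbour and close relative of CXCL1, had 2.21, 1.85 and 4.34 CPM in apigenin 1, 2 and 3, against 4.52, 4.41 and 4.46 CPM in DMSO 1, 2 and 3 (-0.68 ± 0.268, adjusted p = 0.137). Apigenin 3 was just below the DMSO libraries and the other two well below. CXCL3 had -0.31 ± 0.417 and CXCL5 -0.12 ± 0.137. These genes are near copies, so reads may have been split among CXCL1, CXCL2 and CXCL3, and their levels are uncertain. All the chemokine genes named here beyond CXCL1 and CXCL8 were named after their values were seen. CXCL2 and CXCL16 were called lower with the length trend removed (edgeR adjusted p = 0.0242 and 0.0297). CCL20 and CCL26, at 834 and 692 nucleotides, then stood at 0.27 and 0.13 without a call (edgeR adjusted p = 0.378 and 0.663).

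Of 16 tested genes of other interleukins and cytokines, 1 rose and 15 were not called. The shares over all tested genes were 2.76% higher and 4.22% lower. LIF, a cytokine gene of the interleukin 6 family, had 28.5, 25.1 and 24.3 CPM in apigenin 1, 2 and 3, against 16.2, 17.9 and 20.4 CPM in DMSO 1, 2 and 3 (0.52 ± 0.104, edgeR adjusted p = 0.0097). The groups did not overlap, and the call was lost without apigenin 1, DMSO 1 or DMSO 2 (adjusted p of up to 0.0778). IL1A, the sister cytokine of IL1B, had 0.87 ± 0.462 CPM with apigenin and 0.254 ± 0.225 CPM with DMSO, with overlapping groups (1.76 ± 0.67, adjusted p = 0.123). IL1RN, which encodes the natural antagonist of the interleukin 1 receptor, had 19.8 ± 1.42 CPM with apigenin and 15.6 ± 1.93 CPM with DMSO (0.34 ± 0.110, adjusted p = 0.077). TNFSF15 (-0.89 ± 0.321, edgeR adjusted p = 0.107) and TNFSF10 (-0.62 ± 0.235, adjusted p = 0.125) went the other way, without a call and with groups that did not overlap. Of the 16 genes, 13 had a positive and 3 a negative log2 fold change, against 7711 and 7462 of all tested genes. Their median was 0.23, and 0.12 with the length trend removed. IL1A, IL1RN, TNFSF15 and TNFSF10 were named after their values were seen. The cytokine genes TNF and IL6 had few or no reads: TNF had 1, 0 and 0 counts with apigenin and 0, 0 and 4 with DMSO, and IL6 had 0 in each apigenin library and 0, 0 and 2 with DMSO.

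Of 38 tested other NF-kappaB targets, 5 rose, 2 fell and 31 were not called, against 2.76% higher and 4.22% lower over all tested genes. IRF1, a transcription factor gene shared with the interferon response, rose by 0.74 ± 0.105 (edgeR adjusted p = 0.0011), and the AP-1 gene FOSL1, at 81.0, 77.1 and 82.9 CPM in apigenin 1, 2 and 3 against 56.9, 55.8 and 53.0 CPM in DMSO 1, 2 and 3, rose by 0.54 ± 0.064. The growth factor gene BMP2 rose by 0.28 ± 0.064, the repressor gene TGIF1 by 0.26 ± 0.059 and the cyclin D1 gene CCND1 (named after its values were seen) by 0.22 ± 0.057. Each of these last 3 lost its call without apigenin 1, DMSO 1, DMSO 2 or DMSO 3 (adjusted p of up to 0.144, 0.131 and 0.197). The zinc finger gene KLF6 had 49.8, 51.2 and 44.7 CPM in apigenin 1, 2 and 3, against 66.9, 71.3 and 70.2 CPM in DMSO 1, 2 and 3, and fell by 0.52 ± 0.071 on the log2 scale. CD44, which encodes a hyaluronan receptor of tumour cells, fell by 0.35 ± 0.052. Among genes often read as markers of NF-kappaB activity, ICAM1 had 93.9 ± 6.75 CPM with apigenin and 82.8 ± 3.07 CPM with DMSO (0.18 ± 0.068, adjusted p = 0.118), and SOD2 had 130 ± 9.9 CPM with apigenin and 113 ± 3.75 CPM with DMSO (0.20 ± 0.066, adjusted p = 0.0852). ICAM1 and SOD2 were named after their values were seen, and neither was called, though SOD2 was called higher with the length trend removed.

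**Figure D4:**
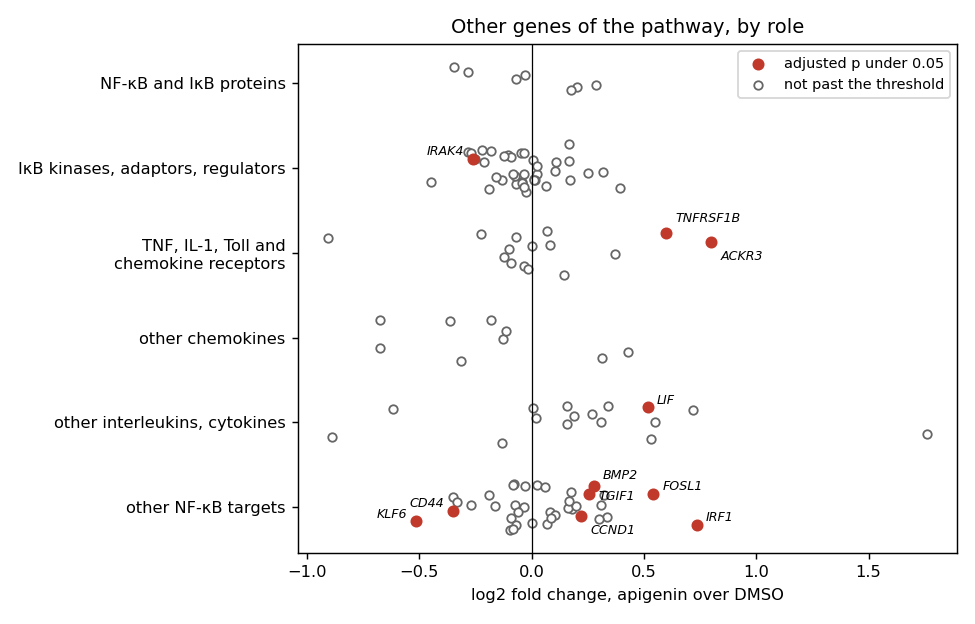
Log2 fold change, apigenin over DMSO, of the tested genes of 6 pathway lists, 1 point per gene, spread vertically at random within a list; filled red points have an adjusted p under 0.05. The 8 genes that rose and 3 that fell carry their names, and most points lie close to 0.

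The 3 genes with the most similar pattern were sought for each of the 3 called genes of highest level, by Pearson correlation of log2 CPM over the 6 libraries among 10711 or 10712 genes of 5 CPM or more. The 6 libraries form 2 groups and are shared by all genes compared, so these values describe likeness only. TNFAIP2 was closest to SLC12A7 (0.9963), TIMP3 (0.9959) and ST6GALNAC6 (0.9933). IER3 was closest to LOC105372480 (0.9965), PLAAT4 (0.9964) and TMEM9B (0.9954), and IL1B to CHPF2 (0.9958), MED17 (0.9951) and BMP2 (0.9902). Correlation does not reflect the size of a change. By log2 fold change, SLC12A7 (0.52), LOC105372480 (0.64), PLAAT4 (0.73), CHPF2 (0.23) and BMP2 (0.28) were called higher. TIMP3 (0.15), ST6GALNAC6 (0.30), TMEM9B (0.11) and MED17 (0.19) were not called.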

How the data were processed

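RNA of 3 apigenin and 3 DMSO libraries was extracted with TRIzol, per the labels' protocols, and sample titles gave the groups. The submitters' processing notes name fastp, HISAT2, HTSeq and GRCh38. Their versions, the annotation and any strand setting were not found in the labels or files. The authors deposited raw read counts by gene symbol for each sample, and FPKM values. Gene lengths were computed from both, since count, length and library total gave the FPKM in 100% of values (relative tolerance 0.0001).

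Counts were tested with edgeR 4.0.16 (R 4.3.3; quasi-likelihood test, TMM, default filter keeping 15173 of 23059 genes), and the step was tested on simulated data. Standard errors are the log2 fold change over the root of F. The length trend is a lowess curve (span 0.3) per library, removed as offsets. Other settings used DESeq2 1.42.0, other factors and filters, the replicate block, limma 3.58.1 on FPKM (pseudocounts 1 and 0.1; filter of 0.5 FPKM in 3 libraries) and libraries left out.

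Replicates differed by more than counting noise (chi-square over degrees of freedom 9.17 to 29.5 with apigenin, 4.34 to 5.21 with DMSO). The genes and lists were chosen with earlier results of these data known. All 10 genes are named, with up to 4 called genes of 1 CPM or more per list and direction by size of change; the text marks the rest as named with values in view.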

Additional observations from a re-analysis of the deposited data

How the results depend on the processing

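The directions of the 4 called genes held in every setting that gave a value. IER3 and TNFAIP2 kept their calls throughout, at 0.67 to 0.94 and 0.47 to 0.57 on the log2 scale. CXCL1 was tested in 16 of 18 settings. DESeq2 gave it no adjusted p and a filter of 1 CPM in 3 libraries removed it, so that 0 of the 10 genes were called lower in either. On log2(FPKM + 1) CXCL1 was as small as -0.68, a scale that understates low genes. With libraries left out CXCL1 ranged from -2.49 to -1.84, IL1B from 0.74 to 1.05, NFKBIA from 0.12 to 0.24 and CXCL8 from -0.15 to 0.17. The count of the 10 genes called lower was then 0 to 1. IL1B stood at 0.69 and was not called by limma on log2(FPKM + 1) without a filter (adjusted p = 0.126). TNFAIP3 stood at 0.0092 with the length trend removed and apigenin 3 left out, a setting added after seeing the data, against -0.34 to -0.06 with single libraries left out.

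Counts over all tested genes moved more. Genes called higher numbered 658 by DESeq2, 865 with no filter, 702 with the length trend removed, 828 with that and the replicate block, 78 by unfiltered limma and 651 with the trend removed without apigenin 3. They numbered 103 to 1344 with libraries left out, highest without apigenin 2 and lowest without DMSO 1. Genes called lower numbered 1096 with no filter, 303 and 289 by limma on log2(FPKM + 1) and log2(FPKM + 0.1), 60 by unfiltered limma and 157 to 1546 with libraries left out. In the 6 pathway lists together, 13 rose with no filter, 14 with the length trend removed, with or without the block, 2 by unfiltered limma, 15 with the trend removed without apigenin 3 and 4 to 20 with libraries left out. Those that fell numbered 7, 9 with the trend removed, 8 with the block too, 1, 6 and 2 to 13 in the same order. The cause was not tested.

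No pairing of the libraries by replicate number was seen. Deviations from the group means correlated at -0.017, -0.019 and -0.048 for same-numbered libraries. For differently numbered libraries the values were -0.011 to 0.031. How the libraries were prepared is not settled by these values. With the replicate block 455 genes rose and 776 fell, the same 4 of the 10 genes were called, IRAK4 lost its call (adjusted p = 0.0637) and 1 of the other subunit and I-kappaB genes was called lower. Depth limits CXCL1, with 26 counts over the apigenin libraries, and the cytokine genes TNF and IL6.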

Other observations

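Levels of the 10 genes relative to each other within a library, which no scaling between libraries can change, were computed from the FPKM values after the results above were seen. The ratio of IER3 to TNFAIP3 was 25.9, 19.0 and 36.6 in apigenin 1, 2 and 3, against 12.4, 13.3 and 12.4 in DMSO 1, 2 and 3. Every apigenin library was above every DMSO library, and these genes lie near opposite ends of the length range of the 10. The ratio followed the order of the slopes on length, whose part was not tested. The ratio of TNFAIP2 to TNFAIP3 was 19.0, 15.5 and 20.4 in apigenin 1, 2 and 3, against 11.3, 11.2 and 11.1 in DMSO 1, 2 and 3. It followed the same order of the slopes, whose part was again not tested. The ratio of CXCL8 to CXCL1 was 6.53, 8.25 and 21.7 in apigenin 1, 2 and 3, against 2.12, 2.70 and 1.78 in DMSO 1, 2 and 3, where the highest value rests on 4 CXCL1 counts.

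Among the marker genes of other cell types, LUM, which encodes the matrix proteoglycan lumican, had 28.98 ± 1.22 CPM with apigenin and 23.1 ± 1.25 CPM with DMSO (0.33 ± 0.083, edgeR adjusted p = 0.0313), while other stromal markers such as COL3A1 and PDGFRB averaged under 1 CPM in both groups. Of the 4 leukocyte markers tested, 2 had a positive and 2 a negative log2 fold change, and 1 was called. That gene, ITGAM, an integrin gene of myeloid cells, had 5.52 ± 0.265 CPM with apigenin and 8.11 ± 0.922 CPM with DMSO (-0.56 ± 0.140, adjusted p = 0.0313). CD68, a macrophage marker and the most abundant of the list, had 89.9 ± 4.4 CPM with apigenin and 89.1 ± 3.92 CPM with DMSO (0.01 ± 0.064, adjusted p = 0.93), CD14 had 0.21 ± 0.635 (adjusted p = 0.886) and LYZ -1.35 ± 0.499 (adjusted p = 0.114). These markers were named after their values were seen.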
